A study of Mus musculus with 2 samples.

Results

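Uptake receptors are the surface proteins by which macrophages bind and take in dying cells, modified lipoproteins, haemoglobin complexes, glycoproteins and microbes. Transcripts of 9 such receptors and of 1 bridging ligand were followed across the cell classes of the mouse molar, and the macrophages left after clodronate treatment were set beside those of control mice. The genes were taken by symbol from the count matrices, and all 10 were among the 34285 genes listed: Mrc1, Folr2, Cd163, Stab1, Msr1, Marco, Cd36, Mertk, Axl and Gas6. The tissue was the mandibular first molar with its surroundings at PN15.5, from C57BL/6J mice. Lipo-Clo mice were injected intraperitoneally with clodronate liposomes at 40 μg/g on PN3.5 and again on PN6.5, on PN9.5 and on PN12.5, and Lipo-PBS mice with the same volume of vehicle liposomes on those days. Clodronate liposomes reach cells by being swallowed, so the treatment acts on phagocytic cells by way of uptake itself. Each condition was a single 10x Genomics library, and the number of mice behind each library is not given in the sources used here. No difference between Lipo-Clo and Lipo-PBS therefore has a replicate check, and every 95% interval below covers counting error only.

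The receptors fall into families with distinct ligands. Mrc1 is the mannose receptor CD206, Folr2 is folate receptor beta, Cd163 takes up haemoglobin bound to haptoglobin, and Stab1 clears modified lipoproteins and matrix fragments. Msr1 and Marco are class A scavenger receptors, and Cd36 is a class B scavenger receptor that binds oxidised lipoproteins, long-chain fatty acids and apoptotic cells. Mertk and Axl are tyrosine kinases of the TAM family, and Gas6 is the secreted protein that bridges them to phosphatidylserine on dying cells. In tissue macrophages high Mrc1, Folr2 and Cd163 commonly mark long-lived resident cells, while TAM receptors and Gas6 are also made by connective tissue, epithelial and vascular cells.

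Promoter windows were available for 9 of the 10 genes, as 10 windows from RefSeq on build GRCm38.p6, each 300 bases long, from 250 bases before to 50 bases after the annotated start and written 5′ to 3′ on the strand of the gene. The windows of Mrc1 (chr2:14229164-14229463, plus strand), Cd163 (chr6:124304401-124304700, plus strand), Cd36 (chr5:17835847-17836146, minus strand) and Axl (chr7:25788684-25788983, minus strand) are shown. In macrophages these 4 genes differed between the libraries beyond counting error, as did Gas6 and Stab1, whose windows are not shown. Capitals mark matches on either strand to the PU.1 purine box GAGGAA, the AP-1 site TGANTCA or the MAF half-site TGCTGA, motifs of factors that act in macrophages; no match to 1 of these motifs shared a base with a match to another in the 4 windows.
Mrc1: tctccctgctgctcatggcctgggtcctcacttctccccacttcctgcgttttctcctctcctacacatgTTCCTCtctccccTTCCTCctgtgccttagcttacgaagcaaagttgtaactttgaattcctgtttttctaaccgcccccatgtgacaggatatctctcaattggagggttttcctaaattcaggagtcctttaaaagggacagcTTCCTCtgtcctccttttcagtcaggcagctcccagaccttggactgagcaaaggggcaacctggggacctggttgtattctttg
Cd163: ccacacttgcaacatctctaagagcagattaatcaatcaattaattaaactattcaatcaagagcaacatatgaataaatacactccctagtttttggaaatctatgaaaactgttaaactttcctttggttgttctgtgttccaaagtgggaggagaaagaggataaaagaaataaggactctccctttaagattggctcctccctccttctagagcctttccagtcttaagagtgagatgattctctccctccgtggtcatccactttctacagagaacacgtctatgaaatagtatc
Cd36: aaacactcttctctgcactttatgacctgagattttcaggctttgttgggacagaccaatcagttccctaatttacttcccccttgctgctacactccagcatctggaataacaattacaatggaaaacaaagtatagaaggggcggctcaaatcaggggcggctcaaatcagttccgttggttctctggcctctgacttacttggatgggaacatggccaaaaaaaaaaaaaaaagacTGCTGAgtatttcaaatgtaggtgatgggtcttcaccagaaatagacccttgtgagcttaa
Axl: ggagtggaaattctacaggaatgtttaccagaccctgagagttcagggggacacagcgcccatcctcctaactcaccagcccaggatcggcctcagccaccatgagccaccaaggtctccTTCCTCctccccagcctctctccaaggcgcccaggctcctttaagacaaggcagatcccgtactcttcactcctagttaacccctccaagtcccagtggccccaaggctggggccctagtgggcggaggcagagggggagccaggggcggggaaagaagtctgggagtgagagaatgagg

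The Mrc1 window held 3 purine boxes and the Axl window 1, the Cd36 window held 1 MAF half-site, and the Cd163 window held none of the 3 motifs. Of the windows not shown, Stab1 held 1 purine box and 1 MAF half-site and Marco 1 purine box. Both Folr2 windows held a MAF half-site, and 1 of them also an AP-1 site. The windows of Mertk and Gas6 held none. Over all 32851 promoter windows of this length, 28.3% held a purine box, 19.5% a MAF half-site and 7.81% an AP-1 site. These matches describe letters and not binding, which was not measured.

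After filtering, 8254 Lipo-Clo and 8261 Lipo-PBS cells remained, with 26852423 and 25831678 UMIs and medians of 2567 and 2678 UMIs per cell. The libraries shared 30 cell barcodes. Cells were clustered without the 10 genes, and the macrophage class was named from 8 of 8 markers that include none of them. It held 130 Lipo-Clo cells, 1.57% of the library, and 171 Lipo-PBS cells, 2.07%, for a log2 ratio of shares of -0.39 (-0.73 to -0.06). Macrophages had medians of 1900 and 2348 UMIs per cell and summed to 305409 and 459548 UMIs. A further cluster led by Acta2, Tm4sf1 and Tagln, genes of contractile and vascular cells, carried markers of several lineages and was left unnamed. It stood apart by library, with 49 cells from Lipo-Clo and 622 from Lipo-PBS. Outside the macrophage class 39 and 122 cells had at least 3 C1q UMIs, and 1 and 59 of them lay in that cluster. A further 17 and 9 lay in a myeloid subcluster led by Cd74, Lyz2 and Wfdc17, with 84 Lipo-Clo and 36 Lipo-PBS cells. That subcluster also met 8 of 8 macrophage markers, beside 5 monocyte and 3 dendritic markers, and was left unnamed. With it counted as macrophages the log2 ratio of shares was 0.049. Levels are UMIs scaled to a total of 1000000 UMIs for the class and library (CPM), and each ratio is Lipo-Clo over Lipo-PBS.

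Apart from Marco, which was nearly absent, the genes followed 3 patterns across the classes. Mrc1, Folr2 and Cd163 were mostly macrophage transcripts, Stab1, Msr1 and Cd36 were shared with endothelium, other myeloid cells or erythroid cells, and Mertk, Axl and Gas6 were spread over mesenchyme, epithelium and perivascular cells. The macrophage class held 83.2% of the Mrc1 UMIs of the Lipo-Clo library and 73.3% of those of the Lipo-PBS library. For Folr2 these shares were 77.1% and 71.9%, and for Cd163 they were 86.0% and 66.8%. Marco, a receptor of alveolar and marginal-zone macrophages, was at 0 UMIs in macrophages of both libraries, where the upper Poisson limits were 12.1 CPM in Lipo-Clo and at 8.03 CPM in Lipo-PBS. A single Marco UMI was seen among all analysed cells, in Lipo-PBS mesenchyme.

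With both libraries summed, Mrc1 stood at 1231 CPM (1154 to 1313) in macrophages. The next named classes in order were dendritic cells at 50.1 CPM (34.9 to 69.6) and endothelium at 44.1 CPM (35.1 to 54.8), whose intervals overlapped. Glia followed at 11.6 CPM (6.18 to 19.8), below both. Cd163 was at 230 CPM (197 to 267) in macrophages and 48.6 CPM (33.7 to 68.0) in dendritic cells, and every other named class was at 1.86 CPM or lower. Folr2 was at 119 CPM (95.8 to 146) in macrophages and at 2.68 CPM or lower in the other named classes. Both receptors were thus near the floor of the data outside the myeloid classes.

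Stab1 was also a gene of endothelium, where sinusoidal and lymphatic vessels are known to use it. Its level was 780 CPM (719 to 846) in macrophages, 304 CPM (279 to 330) in endothelium and 19.7 CPM (11.0 to 32.5) in granulocyte progenitors. Endothelium held 40.3% and macrophages 40.1% of the Stab1 UMIs in Lipo-Clo, against 36.9% and 40.3% in Lipo-PBS. Msr1 was at 119 CPM (95.8 to 146) in macrophages, and osteoclasts came next among the named classes with 6 UMIs, all in Lipo-Clo, at 18.8 CPM (6.91 to 41.0) there. In Lipo-Clo 22.5% of its UMIs, 18 in number, lay in an unnamed myeloid subcluster led by Cd74, Lyz2 and Wfdc17 with 84 cells from Lipo-Clo and 36 from Lipo-PBS, at 76.1 and 30.3 CPM. The macrophage class had 37.5% of Msr1 UMIs in Lipo-Clo and 64.9% in Lipo-PBS. Cd36 was at 281 CPM (245 to 321) in macrophages, 59.7 CPM (50.9 to 69.6) in erythroid cells and 40.9 CPM (32.2 to 51.2) in endothelium. Erythroid cells held 45.0% of Cd36 UMIs in Lipo-Clo and 15.2% in Lipo-PBS, while macrophages held 13.6% and 44.0%.

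For the TAM genes the macrophage was 1 source among several. Axl was at 113 CPM (99.7 to 129) in perivascular cells, 90.2 CPM (70.2 to 114) in macrophages and 66.3 CPM (63.1 to 69.6) in dental mesenchyme, and the intervals of the first 2 overlapped. The order differed between libraries: macrophages were at 128, perivascular cells at 115 and mesenchyme at 58.1 CPM in Lipo-Clo, and at 65.3, 113 and 74.7 CPM in Lipo-PBS. Mertk was at 99.4 CPM (78.3 to 124) in macrophages, 61.6 CPM (55.1 to 68.7) in epithelium, 52.8 CPM (43.6 to 63.4) in perivascular cells and 46.7 CPM (44.0 to 49.5) in mesenchyme, and each of the last 3 overlapped its neighbour in the order. Gas6 was at 260 CPM (225 to 299) in macrophages, 92.5 CPM (79.2 to 107) in endothelium, 65.1 CPM (58.3 to 72.3) in epithelium and 38.8 CPM (36.4 to 41.4) in mesenchyme. Mesenchyme, the most numerous class, held most Mertk UMIs (61.2% in Lipo-Clo and 52.6% in Lipo-PBS), most Axl UMIs (68.4% and 62.2%) and the largest share of Gas6 UMIs (40.1% and 36.2%).

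**Figure D1:**
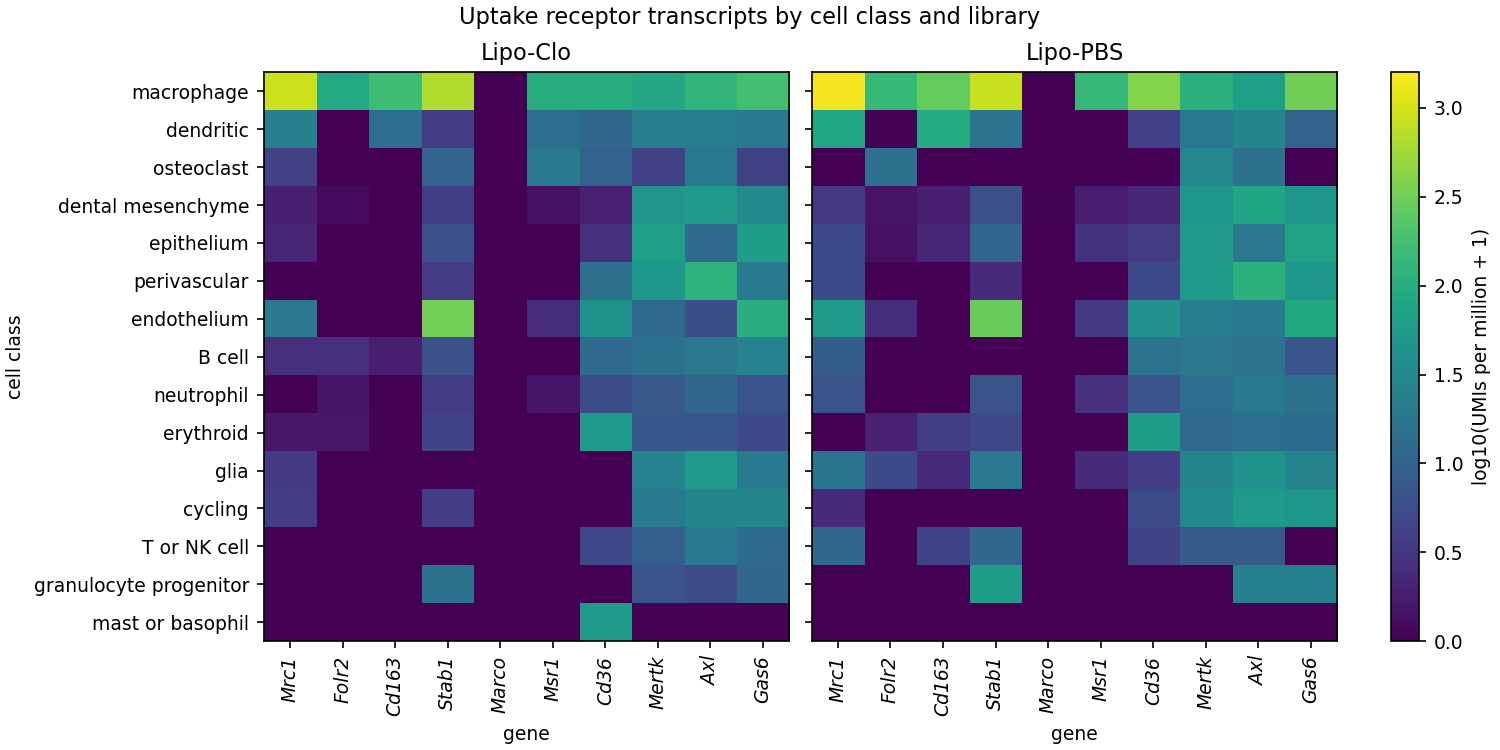
Level of each gene in each named cell class, as log10(CPM + 1) on a colour scale, with 1 panel per library, genes on the x axis and classes on the y axis. Mrc1, Folr2 and Cd163 are brightest in the macrophage row, with Mrc1 weaker in dendritic cells and endothelium and Cd163 weaker in dendritic cells, Stab1 is also bright in endothelium and Cd36 in erythroid cells (the bright mast or basophil square for Cd36 is 1 UMI in 7 cells), while Mertk, Axl and Gas6 spread over macrophages, mesenchyme, epithelium and perivascular cells.

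The question of the comparison was whether macrophages left in Lipo-Clo differed from those of Lipo-PBS in uptake receptors. Of the 9 genes with at least 20 macrophage UMIs over both libraries, 8 had a ratio below 0 and Axl alone a ratio above 0; Marco was under that filter. Cd36 was 4.10-fold lower in Lipo-Clo, Gas6 1.78-fold, Cd163 1.72-fold, Mrc1 1.60-fold and Folr2 1.58-fold lower, and Axl was 1.96-fold higher. The median log2 ratio of the 9 genes was -0.66, beside -0.05 over all 5318 genes with at least 20 macrophage UMIs. Of the 9 genes, 5 were at least 1.5-fold lower, against 21.0% of all genes, and 1 was at least 1.5-fold higher, against 13.1%. The interval of the ratio lay below 0 for 5 genes (9.25% of all genes) and above 0 for 1 gene (8.69% of all genes). The 9 genes had from 69 to 942 macrophage UMIs, while these shares cover every gene from 20 UMIs. Both kinds of share vary with depth, which was not matched, so they give only a rough background. The ratios of the 9 genes depended on which cells counted as macrophages. Where every deposited cell was kept, with no filter and no doublet removal, the class had 184 and 367 cells and the median ratio of the 9 genes was 0.071. The Lipo-PBS class then gained 196 cells, of which 154 had been in other clusters. The Lipo-Clo class gained 54, of which 10 had been in other clusters. The rest of the gained cells had been left out by the filters or as doublets.

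**Figure D2:**
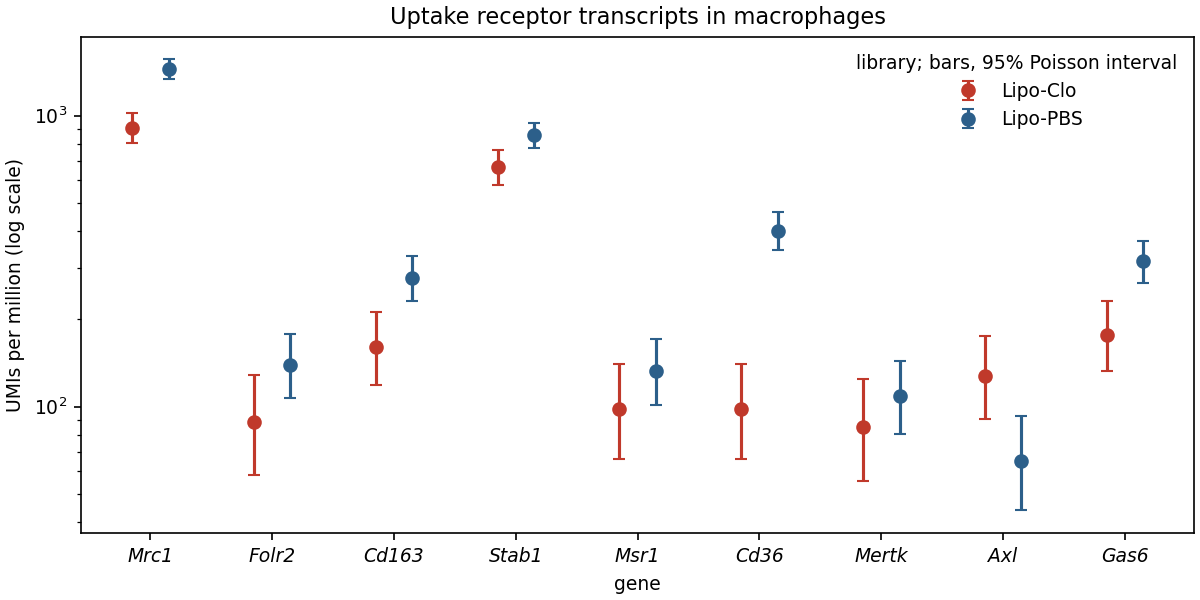
Level of each gene in the macrophages of each library, in CPM on a log scale, with points for the level and bars for the 95% Poisson interval. Cd36 shows the widest gap, 98.2 against 403 CPM, and Axl is the gene with the Lipo-Clo point above the Lipo-PBS point.

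Mrc1 (ENSMUSG00000026712), the mannose receptor, had 277 UMIs in Lipo-Clo and 665 in Lipo-PBS macrophages, or 907 CPM (803 to 1020.3) and 1447 CPM (1339 to 1561). Its log2 ratio was -0.67 (-0.88 to -0.47), and the 2 levels did not overlap. It was seen in 58.5% of Lipo-Clo and 83.6% of Lipo-PBS macrophages, beside 0.380% and 0.755% of B cells, a class without known Mrc1 expression, at B cell medians of 979 and 1016 UMIs. With osteoclasts and dendritic cells counted in, the log2 ratio was -1.51. That border added 46 Lipo-Clo and 10 Lipo-PBS osteoclasts, a class with 1 Mrc1 UMI. Such cells lower the Lipo-Clo level whatever the macrophages carry, so this value says little about macrophages. The interval of the ratio stayed below 0 under other borders, such as without macrophage subcluster 4 (-0.46), and covered 0 under 2 of them. When all cells with at least 3 C1q UMIs counted, whatever their cluster, the ratio was -0.18 (-0.38 to 0.02). With every deposited cell kept it was 0.00. Mrc1 was at 76.5 and 147 CPM in the 39 and 122 C1q cells outside the class. It was at 244 and 207 CPM in the 54 and 196 cells gained with every deposited cell kept. Both pairs lay below the levels of the class.

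Cd163 (ENSMUSG00000008845), the haemoglobin scavenger receptor, had 49 and 127 UMIs, or 160 CPM in Lipo-Clo and at 276 CPM in Lipo-PBS. The log2 ratio was -0.78 (-1.29 to -0.30), and 16.2% of Lipo-Clo and 31.6% of Lipo-PBS macrophages carried a UMI. Folr2, the folate receptor, had 27 and 64 UMIs, or 88.4 and 139 CPM, with a ratio of -0.66 (-1.36 to 0.01) whose interval reached 0. Stab1 had 203 and 394 UMIs, or 665 and 857 CPM, and a ratio of -0.37 (-0.62 to -0.12). As for Mrc1, the intervals of Cd163 and Stab1 covered 0 when C1q UMIs in any cluster defined macrophages, with ratios of -0.28 and 0.06, and with every deposited cell kept the ratios were -0.06 for Cd163 and 0.35 (0.13 to 0.57) for Stab1. The C1q cells outside the class had Cd163 at 5.89 and 15.6 CPM and Stab1 at 64.8 and 102 CPM. The cells gained with every deposited cell kept had Cd163 at 30.0 and 24.9 CPM and Stab1 at 235 and 136 CPM. All lay below the levels of the class. With cells thinned to 1000 UMIs the ratio of Stab1 was -0.27 (-0.65 to 0.11). The 4 receptors lay on the same side in the named class, and with C1q UMIs required within it the ratios were -0.59 for Mrc1, -0.74 for Cd163 and -0.34 for Stab1, with intervals below 0.

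Cd36 (ENSMUSG00000002944), the class B scavenger receptor and fatty acid translocase, had 30 UMIs in Lipo-Clo and 185 in Lipo-PBS macrophages. The levels were 98.2 CPM (66.3 to 140) and 403 CPM (347 to 465), and the log2 ratio was -2.04 (-2.64 to -1.47). It was seen in 16.2% of Lipo-Clo and 46.2% of Lipo-PBS macrophages, and in 2.28% and 3.02% of B cells. Unlike the mannose receptor group, Cd36 kept an interval below 0 with macrophages drawn by C1q UMIs, at -1.66, and with every deposited cell kept, at -0.98 (-1.45 to -0.52). Msr1, the class A scavenger receptor, had 30 and 61 UMIs, or 98.2 and 133 CPM, and its ratio of -0.43 (-1.12 to 0.22) was not distinguishable from 0 at this depth.

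Among the TAM genes, Axl (ENSMUSG00000002602) had 39 UMIs in Lipo-Clo and 30 in Lipo-PBS macrophages, from the smaller Lipo-Clo total. The levels were 128 CPM (90.8 to 175) and 65.3 CPM (44.0 to 93.2), with a log2 ratio of 0.97 (0.24 to 1.71), and the 2 level intervals overlapped narrowly. The interval of the ratio covered 0 when doublets were kept (0.46), when C1q UMIs in any cluster defined macrophages (0.49) when every deposited cell was kept (0.47), and when the class was widened by osteoclasts and dendritic cells (0.16) or by the subcluster led by Cd74, Lyz2 and Wfdc17 (0.40). Mertk, the other TAM receptor, had 26 and 50 UMIs, or 85.1 and 109 CPM, with a ratio of -0.35 (-1.10 to 0.36). Gas6, their ligand, had 54 and 145 UMIs, or 177 and 316 CPM, with a ratio of -0.84 (-1.31 to -0.38); the interval covered 0 with every deposited cell kept, at -0.29, and with cells thinned to 1000 UMIs, at -0.52. The ligand and the receptor Axl thus lay on opposite sides of 0 in the named class. Over all cells the Gas6 ratio was -0.70 (-0.82 to -0.58), inside the macrophage interval, so lower Gas6 in Lipo-Clo was not particular to macrophages. Erythroid cells lay below 0 (-1.60, from 7 and 13 UMIs) and B cells above 0 (2.11, from 29 and 3 UMIs).

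**Figure D3:**
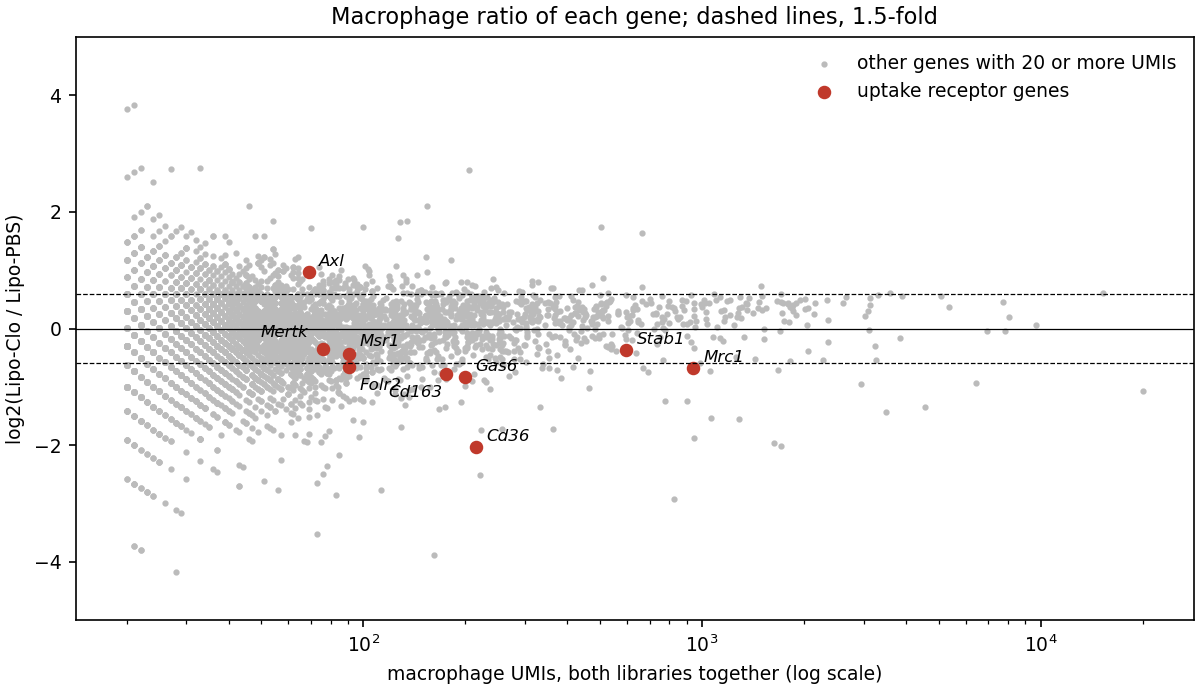
Log2 ratio of Lipo-Clo over Lipo-PBS in macrophages (y axis) against the macrophage UMIs of both libraries together (x axis, log scale), with 1 point per gene, the uptake genes named and dashed lines at 1.5-fold. Grey points spread widely at low UMIs, Cd36 lies at -2.04 near the lower edge of the cloud at its depth, and 1 gene outside the axis or at 0 in 1 library is not drawn.

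Since Lipo-Clo macrophages were shallower, shares of cells were also compared after drawing 1000 UMIs per cell, which left 113 Lipo-Clo and 154 Lipo-PBS macrophages. Mrc1 was then seen in 46.9% (37.5 to 56.5) of Lipo-Clo and 65.6% (57.5 to 73.0) of Lipo-PBS cells. Cd36 was seen in 11.5% (6.27 to 18.9) and 31.8% (24.6 to 39.8), and Cd163 in 9.73% (4.96 to 16.8) and 20.8% (14.7 to 28.0). Of these pairs only Mrc1 and Cd36 had intervals that did not overlap. Axl was seen in 14.2% and 5.84% of cells, Stab1 in 45.1% and 55.2%, Gas6 in 17.7% and 23.4%, Msr1 in 10.6% and 14.9%, and Folr2 in 7.96% and 15.6%, with overlapping intervals throughout. Mertk, at 12.4% and 10.4%, was the gene whose thinned share lay on the other side from its CPM ratio. In the 258 and 136 B cells that could be thinned, Mrc1, Folr2, Cd163 and Msr1 were at 0 and the others at 2.21% or lower.

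Uptake transcripts were also counted per cell. At 1000 UMIs per cell, 22 of 113 Lipo-Clo macrophages (19.5%) and 10 of 154 Lipo-PBS macrophages (6.49%) carried none of the 10 genes, while 13 (11.5%) and 40 (26.0%) carried at least 4. The median was 2 genes per cell in both libraries, and the means were 1.76 and 2.44. Without thinning, none was seen in 8.46% and 2.34% of cells and at least 4 in 27.7% and 53.2%. Mrc1 and Cd36 were seen together in 12 of 130 Lipo-Clo and 69 of 171 Lipo-PBS macrophages, Mrc1 and Stab1 in 59 and 113, and Mrc1 and Cd163 in 18 and 52. Mertk and Axl were seen together in 5 and 4 cells, Mertk without Axl in 21 and 34, and Axl without Mertk in 24 and 22. Axl and its ligand Gas6 were seen together in 8 and 12 cells, Axl without Gas6 in 21 and 14. Gas6 without Axl was seen in 33 and 73. Whether these overlaps departed from those of separate detection was not tested.

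Macrophages fell into 4 subclusters, made again without the 10 genes. Subcluster 1 was led by Bcl2a1b, Cd14, Cd83 and Ccl4, genes of activated myeloid cells, with 72 Lipo-Clo and 69 Lipo-PBS cells. Subcluster 2 was led by Lgals3 and S100a6 with 34 and 38 cells, and subcluster 3 carried collagen transcripts such as Col1a1, which fibroblasts and osteoblasts make, with 18 and 28 cells. Subcluster 4, led by Mctp1, Slc9a9 and F13a1, had 6 Lipo-Clo and 36 Lipo-PBS cells. Its Mrc1 level was 3457 CPM (3064 to 3887) over both libraries, against 1442 CPM in subcluster 1, 639 CPM in subcluster 3 and 532 CPM in subcluster 2. Cd163, at 482 CPM, and Mertk, at 284 CPM, also had their top levels there over both libraries. In Lipo-Clo alone Cd163 had 1 UMI there, at 97.7 CPM, below its 232 CPM in subcluster 1.

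Cd36 was lower in Lipo-Clo in subclusters 1, 2 and 4. It was at 68.3 against 302 CPM in subcluster 1, for a log2 ratio of -2.15 (-3.29 to -1.14), and at 174 against 751 CPM in subcluster 2, a ratio of -2.11 (-3.08 to -1.26). In subcluster 4 the ratio of -2.60 (-7.94 to -0.05) rested on 1 and 42 UMIs, and in subcluster 3 the levels were 81.0 and 85.6 CPM. When each subcluster was given an equal weight in both libraries, taken from their joint mixture, the ratio of Cd36 was -1.95.

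The ratios of Mrc1 and Stab1 differed in sign among the subclusters. Mrc1 ratios were -0.47 (-0.75 to -0.19), -0.69 (-1.37 to -0.05) and -0.96 (-1.61 to -0.35) in subclusters 1, 2 and 3, and 0.29 (-0.22 to 0.76) in subcluster 4. Weighted alike, Mrc1 came to -0.30 and Stab1 to -0.06. This weighting enlarges the part of the 6 Lipo-Clo cells of subcluster 4, and the part of the mixture in the ratios was not tested. Stab1 was at 2735 against 1696 CPM in subcluster 4, a ratio of 0.69 (0.04 to 1.29). Its ratios were -0.20 (-0.54 to 0.15), -0.59 (-1.33 to 0.11) and -0.74 (-1.52 to -0.01) in subclusters 1, 2 and 3. Axl was at 123 against 75.6 CPM in subcluster 1, 160 against 53.0 CPM in subcluster 2 and 122 against 42.8 CPM in subcluster 3. In subcluster 1 this rested on 18 and 12 UMIs, and the ratio of 0.70 (-0.43 to 1.89) covered 0. Subcluster 2 had 12 and 6 Axl UMIs and subcluster 3 had 9 and 5, too few for a ratio. The 6 Lipo-Clo cells of subcluster 4 had no Axl UMI, which allows up to 360 CPM, against 98.9 CPM in Lipo-PBS. Gas6 ratios ran from -0.10 in subcluster 4 to -1.24 in subcluster 3, and each of the 4 intervals covered 0. Without subcluster 4 the intervals of Cd163 (-0.49) and Stab1 (-0.25) covered 0 and those of Mrc1, Cd36, Gas6 and Axl did not.

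**Figure D4:**
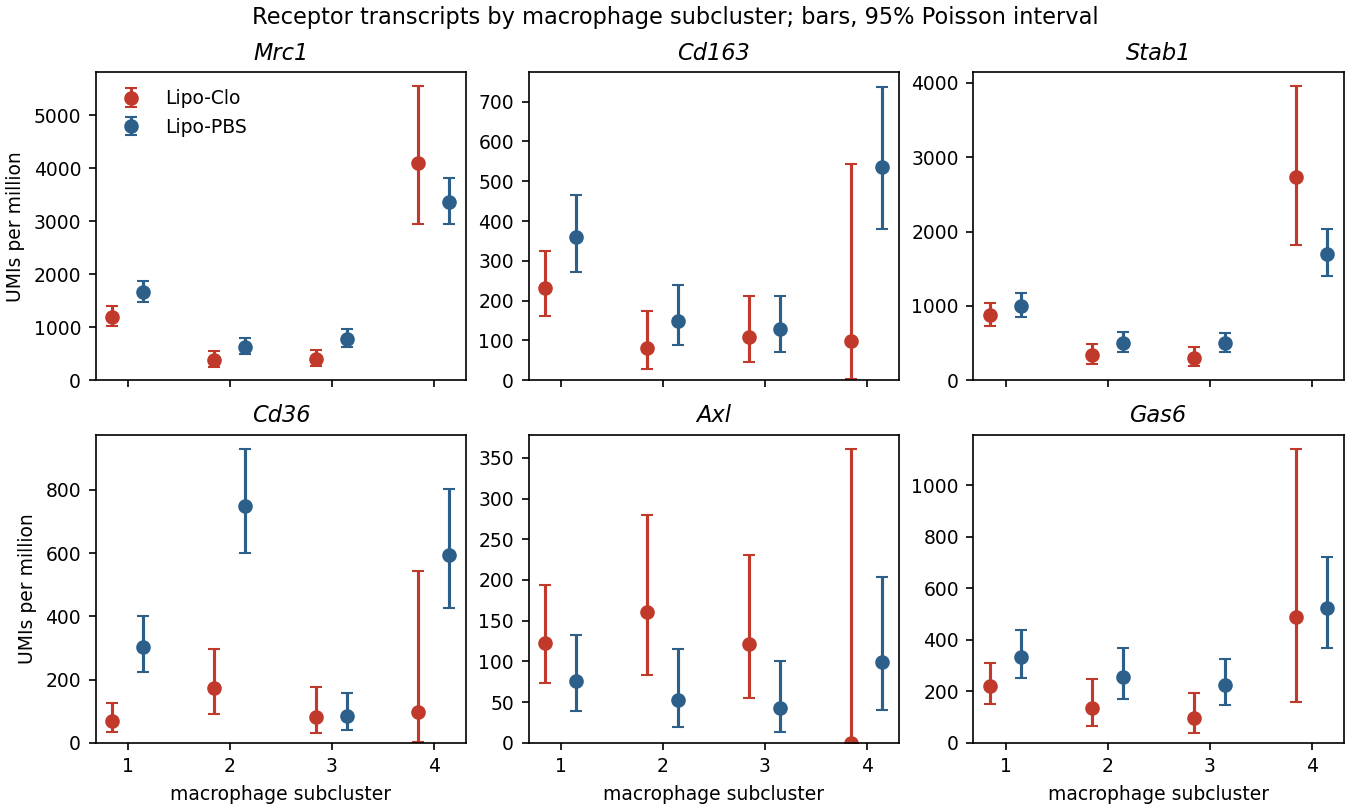
Levels of receptor transcripts in the 4 macrophage subclusters (x axis) in CPM (y axis), with 1 panel per gene, 1 point per library and bars for the 95% Poisson interval. Mrc1 peaks in subcluster 4 in both libraries, and Cd36 is lower in Lipo-Clo in subclusters 1, 2 and 4.

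Other genes of uptake were described through lists, whose counts stand beside 9.25% of all macrophage genes with an interval below 0 and 8.69% with an interval above 0. Of 18 efferocytosis receptors and bridging proteins, 7 had at least 20 macrophage UMIs, with a median log2 ratio of 0.09, and the interval lay below 0 for Anxa1 (-0.51), a phospholipid-binding protein, and Cd14 (-0.26), the lipopolysaccharide co-receptor, and above 0 for none. Of 25 other scavenger and lectin receptors, 15 were measured with a median of 0.08, 3 intervals lay below 0 and 4 above. The collectin receptor Colec12 (36.0 against 126 CPM, -1.81) and Cd68 (-0.39), a lysosomal glycoprotein of macrophages, were among the lower, and Cxcl16 (0.61), which binds oxidised lipoprotein, and the C-type lectin Clec4n (0.39) among the higher. Of 13 Fc and complement receptors with their adaptors, 12 were measured with a median of 0.23, no interval lay below 0 and 3 lay above, among them the signalling adaptors Fcer1g (0.57) and Tyrobp (0.33).

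Of 29 genes of engulfment and the lysosome, 27 were measured with a median of -0.05, with 4 intervals below 0 and 3 above. The cholesterol exporter Abca1 (-0.62) and the lysosomal membrane protein Lamp2 (-0.57) were lower, and the GTPase Rac2 (0.85) and the actin-binding Coro1a (0.59) higher. Of the 8 genes that named the class, 5 intervals lay above 0 and none below, with a median of 0.36, among them Aif1 (0.74), C1qa (0.44), C1qb (0.42) and C1qc (0.25). These 8 genes defined the class, so their ratios only describe it. Of 9 genes of monocyte-derived cells, 2 passed the filter, with a median of 1.19 and 1 interval above 0. These 2 genes lay on opposite sides of 0. Plac8 had 17 and 4 UMIs, a ratio of 2.68 (1.06 to 4.71). It reached the UMI minimum through its Lipo-Clo counts, so its ratio and the median of the 2 genes say little. Vcan had 13 and 24 UMIs, a ratio of -0.30 (-1.39 to 0.74).

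Markers of other cells moved with the libraries inside the macrophage class. The 7 erythroid markers summed to 23699 CPM in Lipo-Clo and at 51931 CPM in Lipo-PBS, with none at 0 in either. The 8 perivascular markers summed to 138 and 520 CPM, with 2 of 8 at 0 in Lipo-Clo and none in Lipo-PBS. The 8 dendritic markers summed to 1077 and 235 CPM, with 3 and 4 of 8 at 0. Most of the 329 and 108 UMIs behind these sums came from MHC class II genes. H2-Eb1 had 167 and 38, H2-Aa 90 and 38, and H2-Ab1 69 and 31. The 6 monocyte markers summed to 128 and 17.4 CPM, with 0 and 3 of 6 at 0. The 8 mesenchyme markers summed to 8955 and 9636 CPM with none at 0. The intervals of the ratio were clear of 0 for further lists: neutrophil (0.94) and osteoblast or cementoblast markers (0.72) were higher in Lipo-Clo, and endothelium (-1.37, at 32.7 and 84.9 CPM), glia (-1.46) and osteoclast markers (-0.59) in Lipo-PBS. The number of these markers at 0 was 3 and 2 of 9, 1 and 1 of 7, 4 and 0 of 8, 3 and 2 of 7, and 2 and 3 of 7, in the same order and with Lipo-Clo first. Dendritic and monocyte sums were likewise higher in Lipo-Clo, and erythroid, perivascular and mesenchyme sums in Lipo-PBS. The osteoblast or cementoblast sum rested on Ibsp, with 114 and 40 of 175 and 160 UMIs. Bglap, with 31 and 66 UMIs, and Bglap2, with 10 and 30, lay the other way. In the osteoclast list Acp5 had 32 and 24 UMIs, a ratio of 1.00 (0.20 to 1.83). Ctsk had 14 and 46 UMIs, and Atp6v0d2 had 1 and 27. Mitochondrial transcripts took 0.487% of macrophage UMIs in Lipo-Clo and 1.73% in Lipo-PBS, and 0.370% and 1.73% over all cells. Without macrophages over 1% haemoglobin UMIs the ratios were -0.73 for Mrc1, -2.11 for Cd36 and 1.02 for Axl, and without those over 1% Col1a1 UMIs they were -0.61, -2.13 and 1.09. Under stricter cell limits (a minimum of 500 genes, a maximum of 10% mitochondrial UMIs) they were -0.70, -1.81 and 0.74. The part of the other marker lists in the ratios was not tested.

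Dendritic cells, named by their MHC class II genes, came next after macrophages for Mrc1 and Cd163 among the named classes. The unnamed myeloid subcluster led by Cd74, Lyz2 and Wfdc17 had 12 Mrc1 UMIs in Lipo-Clo and 5 in Lipo-PBS. Another unnamed myeloid subcluster had 0 and 8. In dendritic cells Mrc1 was at 23.7 CPM (9 UMIs) in Lipo-Clo and at 81.5 CPM (26 UMIs) in Lipo-PBS. The log2 ratio was -1.78 (-3.06 to -0.64). Cd163 was at 13.2 CPM (5 UMIs) and 90.9 CPM (29 UMIs), a ratio of -2.79 (-4.52 to -1.40). Both genes were lower in the Lipo-Clo library. No other member had enough UMIs to be measured here, and both reached the UMI minimum through their Lipo-PBS counts. Of 4384 dendritic genes 20.1% were at least 1.5-fold lower, but this share is no like background for genes admitted in that way. Among the 93 Lipo-Clo and 102 Lipo-PBS dendritic cells, 4 and 9 had at least 3 C1q UMIs, and 1 of the 2 dendritic subclusters also carried mesenchymal genes such as Postn and Col3a1. The part of macrophage RNA in the values was not tested.

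In endothelium Stab1 was at 334 CPM (290 to 383) in Lipo-Clo and at 289 CPM (260 to 321) in Lipo-PBS, for a log2 ratio of 0.21 (-0.05 to 0.46). With coarser clusters (resolution 0.5) that ratio was 1.09, and with every deposited cell kept 0.73, both with intervals above 0. Cd36, which endothelium uses for fatty acid transport, was at 42.5 and 40.1 CPM, a ratio of 0.09 (-0.66 to 0.80), so the 4.10-fold difference seen in macrophages was outside the endothelial interval. Mrc1, which marks lymphatic and sinusoidal vessels, was at 18.0 and 56.9 CPM, a ratio of -1.66 (-2.73 to -0.73), and Axl had 3 and 25 UMIs, a ratio of -2.03 (-4.40 to -0.32). Of the 6 genes measured in endothelium, 3 were past 1.5-fold either way: Mrc1, Axl and Mertk, all of them lower. Mrc1 had 11 and 71 UMIs. Mertk had 7 and 26, a ratio of -0.86 (-2.31 to 0.38), within counting error. Each of the 3 reached the UMI minimum through its Lipo-PBS counts, so their shared direction says little. Of 9170 genes, 26.2% were past 1.5-fold either way, which gives no share for lower genes alone.

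The endothelial class joined a cluster led by Cdh5, the cadherin of vessels at large, with 361 and 369 cells, and a cluster led by Ccl21a, a chemokine of lymphatic vessels, with 31 and 147 cells. In the Ccl21a cluster Stab1 was at 800 CPM in Lipo-Clo and at 341 CPM in Lipo-PBS, a ratio of 1.23 (0.87 to 1.58), while Mrc1 was at 80.0 and 86.3 CPM (-0.11, -1.30 to 0.91). In the Cdh5 cluster Stab1 was at 229 and 216 CPM (0.08). Stab1 thus differed beyond counting error in the Ccl21a cluster and not in the Cdh5 cluster, and Mrc1 did not differ beyond counting error within the Ccl21a cluster.

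Erythroid Cd36 was at 58.4 CPM (99 UMIs) in Lipo-Clo and at 61.7 CPM (64 UMIs) in Lipo-PBS, for a log2 ratio of -0.08 (-0.55 to 0.40). Erythroid precursors carry Cd36 at the surface during maturation. The erythroid level was thus alike within an interval that did not reach the ratio of macrophages. Erythroid cells were 4.82% of Lipo-Clo and 3.28% of Lipo-PBS cells.

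In dental mesenchyme, the class with most TAM transcripts, Axl was at 58.1 CPM (53.9 to 62.5) in Lipo-Clo and at 74.7 CPM (69.9 to 79.8) in Lipo-PBS, for a log2 ratio of -0.36 (-0.51 to -0.22). Gas6 was at 31.7 CPM (28.6 to 34.9) and 46.3 CPM (42.5 to 50.4), a ratio of -0.55 (-0.74 to -0.36). Mertk was at 46.3 and 47.1 CPM, a ratio of -0.02 (-0.19 to 0.15). Axl and Gas6 were thus lower in Lipo-Clo beyond counting error and Mertk was not. Mrc1 (11 and 29 UMIs) and Stab1 (36 and 60 UMIs), at 5.04 CPM or lower, also had intervals below 0. Over both libraries they were at 1.65 and 3.96 CPM in mesenchyme, beside 3.64 CPM for each in B cells. Both were thus near the floor, and the part of stray macrophage RNA in them was not tested. Of the 6 genes measured, 4 had an interval below 0, against 21.2% of 14949 genes, but of these only Axl and Gas6 stood above that floor. The 2 genes past 1.5-fold were Mrc1 and Stab1, against 15.3% of genes either way.

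The mesenchymal clusters differed in Axl level and in their shares of the 2 libraries. The cluster led by Clec3b, Mfap5 and Col14a1, genes of fibrous connective tissue, had the highest Axl level, 175 CPM in Lipo-Clo and at 174 CPM in Lipo-PBS, for a log2 ratio of 0.00 (-0.23 to 0.23). It was 14.9% of Lipo-Clo mesenchyme, 573 cells, and 28.8% of Lipo-PBS mesenchyme, 1059 cells. The cluster led by Tnn, Aspn and Omd, with 28.5% and 20.5% of mesenchyme, had Axl at 34.3 and 20.7 CPM, a ratio of 0.73 (0.27 to 1.20). Axl was at 61.9 and 60.3 CPM in the cluster led by Ibsp, a bone matrix gene, and at 90.2 and 84.2 CPM in that led by Dio2. Within clusters Axl was thus equal or higher in Lipo-Clo where the class as a whole was lower, except for the clusters led by Kcnip4 (12.1 and 16.3 CPM) and Fmod (78.3 and 89.2 CPM), whose intervals covered 0.

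Gas6 was highest in the clusters led by Fmod, a small proteoglycan of tendon and ligament, at 137 and 132 CPM, and by Clec3b, at 77.2 and 97.9 CPM, where the ratio was -0.34 (-0.68 to -0.01). In the Tnn cluster it was at 38.3 and 31.8 CPM, a ratio of 0.27 (-0.12 to 0.66). An unnamed cluster led by Sfrp2, Mmp13 and Pcp4 with mesenchymal markers had Gas6 at 170 and 217 CPM, above each cluster of the mesenchyme class in both libraries, with a ratio of -0.35 (-0.64 to -0.06). Mertk followed other clusters, with its highest mesenchymal level in the one led by Ctnnd2, at 83.5 and 95.2 CPM, and its lowest in Fmod, Clec3b and Kcnip4 clusters, at 22.8 to 33.1 CPM.

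**Figure D5:**
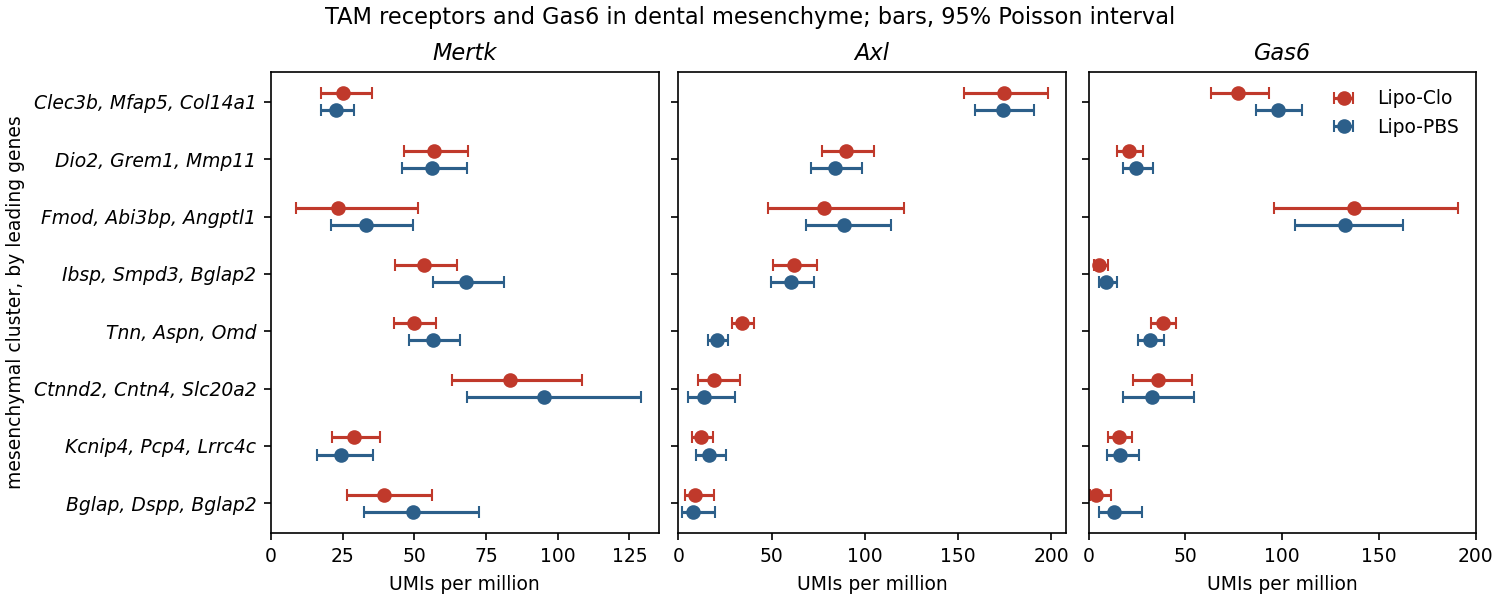
Levels of Mertk, Axl and Gas6 in each mesenchymal cluster (y axis, named by leading genes) in CPM (x axis), with 1 panel per gene, 1 point per library and bars for the 95% Poisson interval. Axl peaks in the cluster led by Clec3b with the libraries at 175 and 174 CPM, and Gas6 in the cluster led by Fmod at 137 and 132 CPM.

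Perivascular Axl was at 115 CPM in Lipo-Clo and at 113 CPM in Lipo-PBS, for a log2 ratio of 0.03 (-0.36 to 0.41), while perivascular Gas6 was at 19.1 and 49.5 CPM, a ratio of -1.37 (-2.28 to -0.55). Gas6 was at 10.1 and 34.6 CPM (-1.77, -3.18 to -0.59) in the pericyte cluster led by Rgs5 and at 87.7 and 106 CPM (-0.27, -1.60 to 0.89) in the smooth muscle cluster led by Myh11, and the 2 intervals overlapped. In epithelium Mertk was at 65.1 and 58.1 CPM (0.16) and Gas6 at 60.9 and 69.3 CPM (-0.19), both within counting error. Epithelial Gas6 sat in the cluster led by Lgals7 and Krt14, keratinocyte genes, at 164 CPM in Lipo-Clo and at 108 CPM in Lipo-PBS, a ratio of 0.61 (0.27 to 0.95). Mertk was at 76.2 and 72.3 CPM in the ameloblast cluster led by Amelx and at 163 and 138 CPM in the cluster led by Cxcl14 and Dsc3. Ligand and receptor thus had their epithelial peaks in different clusters.

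For each gene with at least 200 UMIs in all analysed cells, the 3 genes most like it were taken by Pearson r of log2(CPM + 1) over 30 points, 15 named classes in 2 libraries. The points share libraries and depth, so the values only describe. Mrc1 was most like Ccl12 (0.89), C1qc (0.88) and Gm56663 (0.84), and Cd163 most like Ccl12 (0.86), C1qc (0.84) and C1qa (0.84). Stab1 was most like Lyve1 (0.79), the hyaluronan receptor of lymphatic vessels and some macrophages, then Ptgs1 (0.75) and Mrc1 (0.74). Cd36 was most like Serinc3 (0.82), Pf4 (0.68) and Ap1b1 (0.66). The TAM genes had other neighbours: Mertk was most like Rnf150 (0.92), Psd3 (0.92) and Tm9sf4 (0.90), Axl most like Cdk14 (0.89), Zfp703 (0.89) and the endocytic receptor Lrp1 (0.88), and Gas6 most like Dhrs3 (0.92), Rusc2 (0.86) and Wwp1 (0.85).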

How the data were processed

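Single-cell RNA sequencing of 1 Lipo-Clo and 1 Lipo-PBS library was examined. The files deposited by the authors hold raw UMI counts for each gene in each called cell, without normalization, and their headers name Cell Ranger 8.0.0. The submitters' processing notes name Cell Ranger 3.1.0, Seurat 3.1.1 and GRCm39, and the deposited counts have at least 500 UMIs per cell. The members and gene lists were chosen with earlier results of these data known.

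Cells with under 200 genes (473 and 748) or over 20% mitochondrial UMIs (3 and 11) were left out. Scrublet in scanpy 1.11.5 called 0 and 1 doublets by its automatic threshold, so the 632 and 633 highest scores (0.8% per 1000 cells) were left out. They were 7.11% and 7.12% of the cells scored. With doublets kept, the macrophage class held 176 Lipo-Clo and 225 Lipo-PBS cells, against 130 and 171 with them left out. Both libraries were clustered together on 2000 variable genes without the members, 30 components and 20 neighbours with Leiden (leidenalg 0.10.2, resolution 1), and clusters were named from marker lists; a mixed myeloid cluster was clustered again, a step chosen after seeing the data. UMIs were summed per class and library and scaled to CPM. Level intervals are exact Poisson, shares Clopper-Pearson and ratios exact conditional intervals of 2 Poisson counts. Polymerase chain reaction copies are collapsed by UMIs, and intervals still cover counting error only. With 1 library per condition no test was run. Scripts were tested on simulated data. edgeR 4.0.16 and DESeq2 1.42.0 served only for alternative scaling factors. Named were the 10 members in all classes. From each list at most 4 genes were named, by size, with at least 50 UMIs in macrophages and an interval clear of 0. The 3 most alike genes (each with at least 500 UMIs) were named per member. Further genes name clusters or show which genes lie behind a marker sum or the monocyte list.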

Additional observations from a re-analysis of the deposited data

How the results depend on the processing

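No paired analysis was possible because Lipo-Clo and Lipo-PBS are 1 library each. The log2 ratios in macrophages were recomputed under 21 alternatives, among them 4 chosen after seeing the data. Cd36, Cd163 and Gas6 stayed below 0 in all 21 (-2.73 to -0.98 for Cd36, -1.78 to -0.06 for Cd163 and -1.50 to -0.29 for Gas6) and Axl above 0 in all 21 (0.16 to 1.45), while Mrc1 was below 0 in 20, Stab1 in 19, Msr1 in 18 and Mertk in 17. With every deposited cell kept, the median of the members turned from -0.66 to 0.071, Mrc1 to 0.00049 and Folr2 to 0.085, 1 member and 3140 genes in place of 6 and 1815 were past 1.5-fold, and the log2 ratio of macrophage shares was -0.95 in place of -0.39. With macrophages called by C1q UMIs in any cluster, 1 member and 3227 genes were past the limit and the share ratio was -0.81. With osteoclasts and dendritic cells counted in (no cluster of this clustering was named monocyte), the median was -1.50 and 3158 genes were past the limit. With the subcluster led by Cd74, Lyz2 and Wfdc17 counted in (chosen after seeing the data), the median was -1.26 and the share ratio 0.049. Without macrophage subcluster 4 (also chosen afterwards), 3 members were past the limit. Genes past the limit numbered 714 with cells thinned to 1000 UMIs, 9289 with a minimum of 1 UMI and 596 with a minimum of 50. At a 2-fold limit they were 656, with 1 member, Cd36. Except where the construction changed the cells, the minimum or the limit itself, the cause was not tested. Depth limits Folr2, Msr1, Mertk and Axl, each with under 100 macrophage UMIs over both libraries.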
